A study of Homo sapiens with 8 samples.

Results

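Interleukins are secreted proteins through which cells signal to each other, and most of them act through receptors made of a chain specific to the ligand and a chain shared by a family. Chemokines are small secreted proteins that guide cell movement through receptors coupled to G proteins, and are named by the spacing of their conserved cysteines (CC, CXC, CX3C). In carcinoma cells, IL-6 family receptors are known to signal through JAK kinases to STAT3, IL-4 and IL-13 receptors to STAT6, and the IL-1 receptor through MYD88 and IRAK proteins to NF-kB.

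The members described here are the genes of interleukins, chemokines, their receptors and some related cytokines. They were chosen by gene symbol: symbols opening with IL, CCL, CXCL, CCR or CXCR and a digit, plus CX3CL1, LIF, LIFR, OSMR, CSF1, CSF2, CSF3 and TSLP. Of the 18417 genes with a probe set of their own symbol, 139 were members, measured by 142 probe sets. They comprised 57 receptor genes, 81 genes of ligands, antagonists or binding proteins, and 1 antisense RNA that the symbol rule also took in (IL6-AS1). CSF2 had no probe set of its own symbol and is not analysed here.

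The cells were of the human line BT549, from a breast tumour without oestrogen receptor, progesterone receptor or HER2 (triple-negative). One group of 4 cultures was held in suspension on poly-HEMA, a coating that cells do not stick to, for 24 h, and the other 4 cultures grew attached to ordinary plates; the submitters call them biological replicates. Culture time of the attached group is given in the labels as 24 h and also as 48 h, so time and attachment cannot be told apart if the longer one holds. All cultures had medium with 10% serum and insulin, and all came from a single line, which limits the comparison to that line. RNA of each culture was measured on an array with gene-level probe sets. The labels name a FlashTag biotin kit, a type sold for labelling small RNA, and how the RNA behind these gene-level values was labelled is therefore uncertain. The values below are log2 signals, where a difference of 1 is a doubling of signal. Signals of different genes depend on their probes and are not compared with each other. Array medians lay between 6.02 and 6.07, and arrays correlated at 0.995 to 0.997 within and 0.988 to 0.993 between the groups.

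The labelled cell type was set against marker genes. The 7 mesenchymal markers averaged 10.61 to 10.65 in suspended and 10.34 to 10.40 in attached arrays, with vimentin (VIM, not called) at 11.66 ± 0.06 and 11.73 ± 0.01 (mean ± SD, n = 4 each). Of these 7, 5 were called: SNAI2 rose by 1.23, SPARC by 0.37, ZEB1 by 0.27 and CD44 by 0.22, and CDH2 fell by 0.38. The 10 epithelial and luminal markers averaged 6.19 to 6.26 in suspended and 6.09 to 6.20 in attached arrays. Of these, 3 lay at or below 5.28, the 25th percentile of the gene means, which is used here as a mark of low signal because no detection call was used: ESR1 (the oestrogen receptor gene, 5.11 suspended, 5.04 attached), PGR (the progesterone receptor gene, 4.31 and 4.19) and CDH1 (4.26 and 4.19). The other 7 lay above it, among them the HER2 gene ERBB2 (7.53 suspended, 7.48 attached) and the keratin gene KRT18 (8.13 and 8.16). The luminal factor genes GATA3 (8.65 suspended, 8.17 attached) and FOXA1 (5.79 and 5.61) were called higher in suspension, by 0.49 and 0.18. Leukocytes are a main source of many of these cytokines. The 12 leukocyte markers averaged 5.21 to 5.34 in suspended and 5.21 to 5.33 in attached arrays, and the defining leukocyte gene PTPRC was at 3.94 in both groups. Of the 12, 5 lay at or below the low-signal mark, PTPRC among them. CD68, NKG7, CD14, CD3D, CSF1R, CD79A and ITGAM lay above it. Of these 12, CD14 rose by 0.22 while CD68, a lysosomal protein that other cells also make, fell by 0.39. The 6 endothelial markers averaged 5.22 to 5.38 and 5.25 to 5.34, suspended and attached, and CLDN5 among them rose by 0.26. Of these 6, 4 lay at or below the low-signal mark. What part such markers have in the results was not tested.

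Most called members were receptor genes, and the share of receptors called was near that of all genes tested. Of the 139 members, 16 passed the limma test across all genes (adjusted p under 0.05), 11 of them higher and 5 lower in suspension, or 11.5% of members. Of all genes tested, 20.6% passed, 10.4% higher and 10.2% lower. The called genes were 12 of the 57 receptors (21.1%) and 4 of the 81 ligands, antagonists and binding proteins (4.94%); whether these shares differ was not tested. The 11 that rose were IL1R1, CSF1, LIFR, IL13RA1, TSLP, LIF, IL6ST, IL11RA, IL1RAPL2, IL4R and CCR10. The 5 that fell were IL31RA, IL1RAP, IL7R, CXCL2 and IL2RA. Suspended and attached arrays had no overlap in 16 members (11.5%) against 24.8% of all genes tested, and 0 members changed 2-fold.

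**Figure D1:**
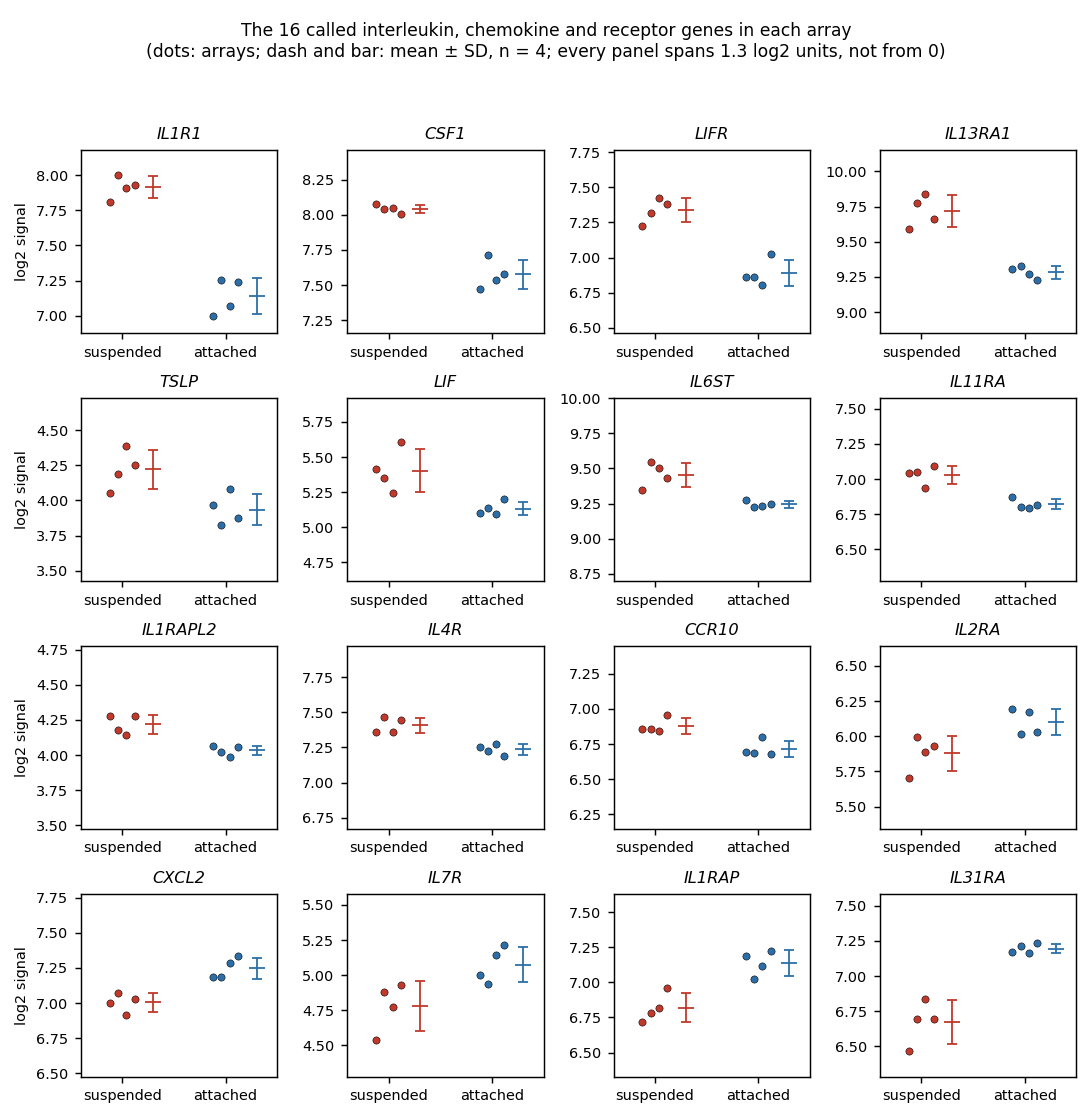
Log2 signal of the 16 called members in each array, suspended left and attached right (dots in order of replicate number; dash and bar give mean ± SD, n = 4). IL1R1 shows the widest gap, IL31RA the widest in the other direction, and TSLP is the 1 gene whose groups touch.

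Centring each array on its median gave 7 members higher and 7 lower, and over all genes 1322 higher and 2494 lower, so that 34.6% of calls over all genes were higher, against 50.4% without it. There IL6ST, IL4R, IL1RAPL2 and CCR10 were no longer called, and CCL2 and IL19 were called lower. The median difference of all members was 0.04 on the log2 scale, beside 0.02 for all genes, and their median absolute difference was 0.07, beside 0.09. Many members had low signals: 72 of 139 (51.8%) lay at or below the 25th percentile of gene means. Among the 67 members above that level 12 were called (17.9%), against 26.2% of all genes above it, and among those below it 4 of 72 were called (5.56%), against 3.74% of all genes below it. Above the level, 10 of 30 receptors and 2 of 37 ligands, antagonists and binding proteins were called.

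**Figure D2:**
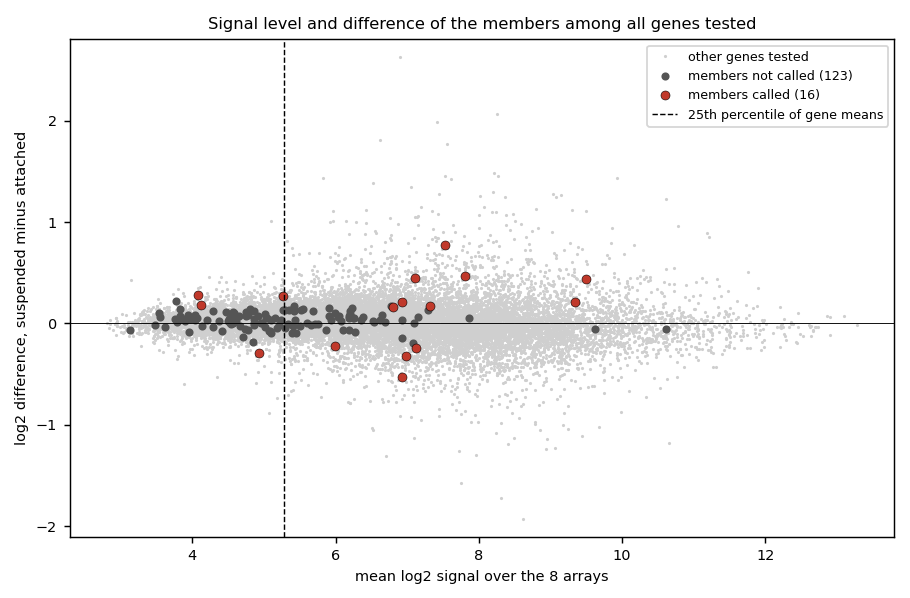
Mean log2 signal over the 8 arrays (horizontal) and log2 difference, suspended minus attached (vertical), for all genes tested (light grey), members not called (dark grey) and members called (red). Members crowd at and left of the 25th percentile of gene means (dashed line, 5.28), and their differences stay between −0.52 and 0.77.

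IL1R1, the signalling receptor for IL-1, had the largest difference of all members. Its log2 signal (probe set 8043995) was 7.81, 8.002, 7.91 and 7.93 in suspended arrays and 6.997, 7.25, 7.07 and 7.24 in attached arrays. Every suspended array lay above every attached one, by more than the spread within either group. The signal was 1.71-fold higher in suspension (log2 difference 0.77, SE 0.07, n = 4 per group, limma adjusted p = 1.2e-05). The arrays measured RNA of whole cultures, so fewer cells expressing a gene and less RNA per cell cannot be told apart, here and below.

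The co-receptor moved the other way. IL1RAP, the accessory chain that IL1R1 needs to signal and that the IL-33 and IL-36 receptors share, had 6.72, 6.78, 6.82 and 6.96 in suspended and 7.19, 7.02, 7.11 and 7.23 in attached arrays. The groups did not overlap, and suspended replicate 4 came nearest to the attached values. IL1RAP was 1.246-fold lower in suspension (log2 difference −0.32, SE 0.06, adjusted p = 0.00437). IL1RAPL2, a related receptor-like gene, rose by a small step at low signal, with 4.28, 4.18, 4.14 and 4.28 in suspended and 4.07, 4.02, 3.99 and 4.05 in attached arrays (log2 difference 0.18, SE 0.05, adjusted p = 0.0209). That call was lost without suspended replicate 1 or 4 or attached replicate 3 (0.16 to 0.21 over the 8 refits that each leave out 1 array), and after median centring (0.14).

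The other IL-1 family receptors and all IL-1 family ligands were not called. The decoy receptor IL1R2 differed by −0.07 (95% interval −0.20 to 0.06). The other genes of the receptor gene cluster on chromosome 2 were the IL-36 receptor chain IL1RL2 (−0.08), the IL-33 receptor chain IL1RL1 (0.03), and the IL-18 receptor chains IL18R1 (0.03) and IL18RAP (0.05). IL1R1 lies between IL1R2 and IL1RL2 with no protein-coding gene in between. Of the 6 genes of that cluster 1 was called, beside 20.6% of all genes tested. IL1R1 was also its only gene above the low-signal mark, and at or below that mark 3.74% of all genes were called. Of the 9 IL-1 family receptors, 7 lay at or below the mark. Among the 12 ligands and antagonists, differences ran from −0.07 to 0.14, and 9 of the 12 had low signals. IL1A differed by 0.08 (95% interval −0.05 to 0.22), IL1B by 0.02 (−0.15 to 0.18) and the receptor antagonist IL1RN by 0.01 (−0.12 to 0.13). IL33 (−0.03), IL36A (0.11), IL36B (0.001) and IL36G (0.13), ligands of receptors that share IL1RAP, were not called.

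**Figure D3:**
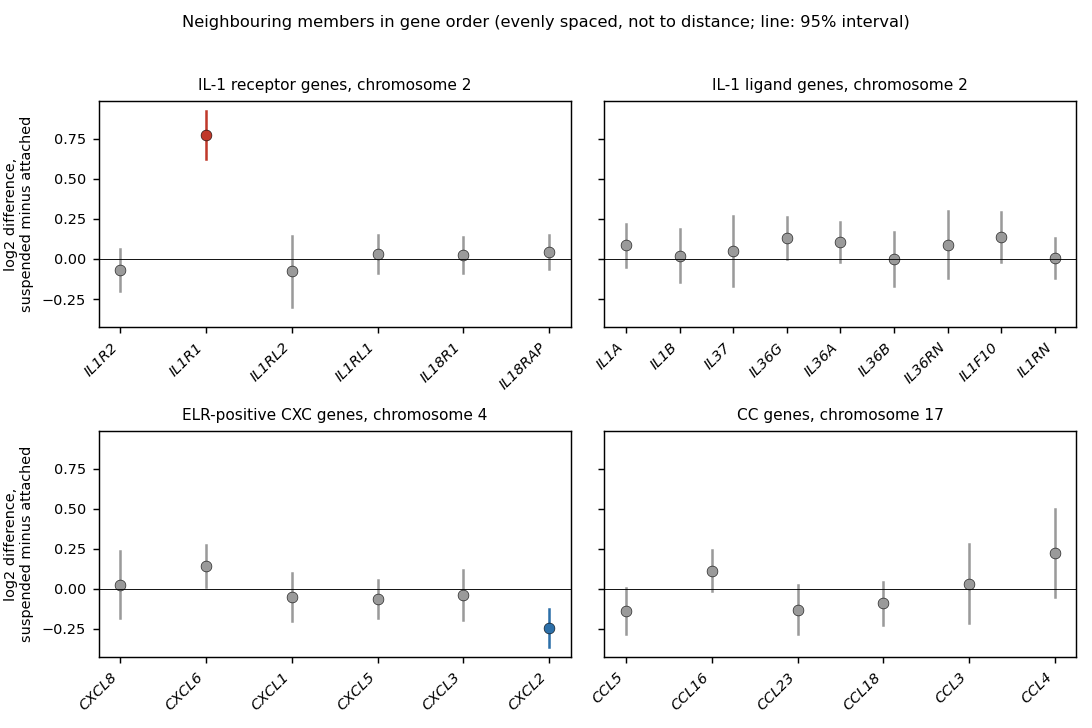
Log2 difference, suspended minus attached, of members that neighbour each other on a chromosome, in gene order and evenly spaced (dot: difference; line: 95% interval, not adjusted for the number of genes). In the receptor cluster IL1R1 alone stands away from 0, and it is the only gene there above the low-signal mark. In the CXC cluster CXCL2 alone is called. Of the 9 IL-1 ligand genes and the 6 CC genes shown 0 are called, beside 20.6% of all genes tested. Both of these sets include genes at low signal.

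Some genes of the adaptors downstream of the IL-1 and IL-17 receptors were called. Of 19 measured genes of the adaptor and processing list, 5 rose and 1 fell, which is 31.6% called beside 20.6% of all genes tested. Of the 19, 3 lay at or below the low-signal mark, and above it 26.2% of all genes were called. The adaptor MYD88 rose by 0.28 (adjusted p = 0.00296), TRAF3IP2, the adaptor of IL-17 receptors, by 0.24, the ubiquitin ligase PELI1 by 0.23, the kinase IRAK2 by 0.22 and TOLLIP by 0.22, while the kinase IRAK1 fell by 0.17. PELI1 lost its call after median centring (0.18) and without attached replicate 1 (refits spanned 0.18 to 0.26). IRAK2 lost its call without suspended replicate 1, 3 or 4 or attached replicate 3 or 4 (0.18 to 0.26) and when replicate number was blocked. TOLLIP lost its call without suspended replicate 3 or 4 or attached replicate 1 or 4 (0.17 to 0.25), after quantile normalization (0.19), after median centring (0.17) and when replicate number was blocked. Of the 8 refits, IRAK1 was called in those without suspended replicate 1 or attached replicate 1 (−0.19 to −0.14), and it lost its call after quantile normalization (−0.15) and when replicate number was blocked. The median difference of the list was 0.07, and with suspended or attached replicate 4 left out 3 of its genes were called.

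Most receptors of the IL-6 family share the chain gp130 (encoded by IL6ST). In this family 4 of 7 receptor genes and 1 of 4 ligands were called. All 7 receptors lay above the low-signal mark, where 26.2% of all genes were called, and 2 of the 4 ligands lay at or below it, where 3.74% were. LIFR, which pairs with gp130 to bind LIF, had 7.23, 7.31, 7.43 and 7.38 in suspended and 6.86, 6.86, 6.81 and 7.02 in attached arrays. All suspended values were the higher ones, and attached replicate 4 stood above its group. LIFR was 1.36-fold higher (log2 difference 0.45, SE 0.06, adjusted p = 0.000353).

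LIF itself, a cytokine known for holding embryonic stem cells undifferentiated in mouse, had 5.42, 5.35, 5.24 and 5.61 in suspended and 5.11, 5.14, 5.09 and 5.20 in attached arrays. The groups were apart, with suspended replicate 3 only just above attached replicate 4. The mean of LIF over the 8 arrays, 5.27, lay just below the low-signal mark of 5.28. The rise of LIF was 0.27 (SE 0.07, adjusted p = 0.0194) and lost its call in the refits lacking attached replicate 1 or 3 (all 8 spanned 0.20 to 0.32). OSM, the neighbour of LIF on chromosome 22 and a ligand of the same family, though no member by symbol, rose by 0.23 (adjusted p = 0.0218). That call was lost after median centring (0.18) and without suspended replicate 1 or 3 or attached replicate 1, 3 or 4 (0.19 to 0.28).

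IL6ST had 9.35, 9.54, 9.501 and 9.43 in suspended and 9.28, 9.22, 9.23 and 9.25 in attached arrays. Suspended replicate 1 lay closest to the attached arrays, which were tightly grouped. The rise was small, 0.21 on the log2 scale (SE 0.05, adjusted p = 0.0129), and was 0.16 and not called after median centring (adjusted p = 0.0704). IL11RA, the specific chain for IL-11, rose to a like extent, with 7.04, 7.05, 6.94 and 7.09 in suspended and 6.87, 6.80, 6.79 and 6.81 in attached arrays (0.21, SE 0.05, adjusted p = 0.00976).

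IL31RA, which pairs with OSMR to bind IL-31, had the largest fall among members. It had 6.46, 6.69, 6.84 and 6.69 in suspended and 7.17, 7.21, 7.17 and 7.23 in attached arrays. The attached arrays agreed closely, and every suspended array was well below them. The signal was 1.44-fold lower in suspension (log2 difference −0.52, SE 0.07, adjusted p = 0.000296). IL31RA and IL6ST are neighbours on chromosome 5 with no protein-coding gene between them, and were called in opposite directions.

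Other members of the family were not called. OSMR, which neighbours LIFR on chromosome 5, had suspended and attached means of 10.58 ± 0.02 and 10.64 ± 0.03, a difference of −0.05 (95% interval −0.15 to 0.04). The IL-6 receptor IL6R differed by 0.15 (0.03 to 0.27, adjusted p = 0.087) and IL27RA by −0.06. IL6 differed by 0.13 (−0.15 to 0.41), the widest interval of the family, and IL11 by 0.06 (−0.17 to 0.29), while IL31 differed by 0.03. STAT3, the main transducer of gp130, rose, with 10.68, 10.68, 10.70 and 10.72 in suspended and 10.35, 10.44, 10.39 and 10.36 in attached arrays (0.31, adjusted p = 0.000386).

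**Figure D4:**
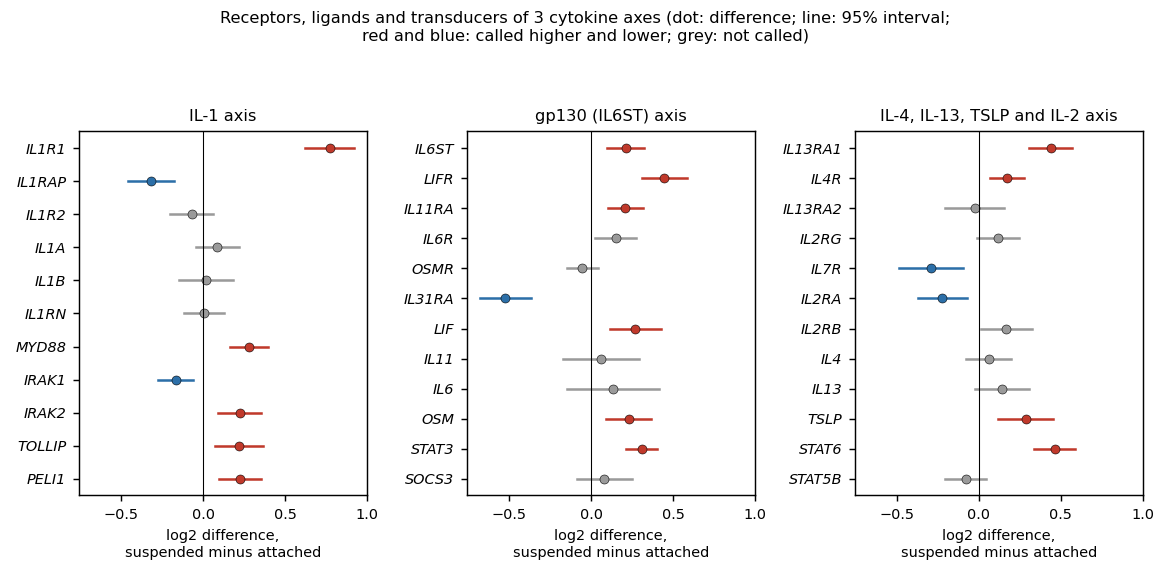
Log2 difference, suspended minus attached, with its 95% interval (not adjusted for the number of genes) for receptors, ligands and transducers of 3 cytokine axes, receptors uppermost in each panel. Red and blue mark genes called higher and lower. In the IL-1 panel IL1R1 (0.77) and IL1RAP (−0.32) lie on opposite sides of 0. In the gp130 panel IL31RA (−0.52), which pairs with OSMR, lies opposite LIFR, IL6ST, IL11RA, LIF, OSM and STAT3.

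Of the 10 receptor genes of the common gamma chain and IL-13 group 4 were called: IL13RA1 and IL4R rose, and IL7R and IL2RA fell. That is 40.0%, beside 20.6% of all genes tested and 26.2% of those above the low-signal mark. Of the 10 receptor genes, 2 lay at or below that mark. IL13RA1, which forms a receptor for IL-13 and IL-4 together with IL4R, had 9.59, 9.78, 9.84 and 9.66 in suspended and 9.31, 9.33, 9.27 and 9.23 in attached arrays. No suspended array came within the attached range. The signal was 1.35-fold higher (log2 difference 0.44, SE 0.06, adjusted p = 0.000329).

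IL4R rose less, with 7.36, 7.46, 7.36 and 7.44 in suspended and 7.25, 7.22, 7.27 and 7.19 in attached arrays (0.17, SE 0.05, adjusted p = 0.023). The call was lost after median centring (0.12), when replicate number was blocked (adjusted p = 0.0737), and without suspended replicate 2 or 4 or attached replicate 2 or 4 (0.15 to 0.19 over the 8 refits). The IL-13 decoy receptor IL13RA2 differed by −0.03 (95% interval −0.21 to 0.15), and the ligands IL4 (0.06) and IL13 (0.14), both at low signal, were not called. STAT6, the transducer of IL-4 and IL-13, rose, with 7.82, 7.77, 7.62 and 7.82 in suspended and 7.27, 7.35, 7.33 and 7.22 in attached arrays (0.46, adjusted p = 0.000168).

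IL7R, a chain of the receptors for IL-7 and TSLP, was at low signal and fell: 4.54, 4.88, 4.77 and 4.93 in suspended against 4.999, 4.94, 5.14 and 5.21 in attached arrays (−0.29, SE 0.09, adjusted p = 0.037). Suspended replicate 4 and attached replicate 2 almost met, and the call was lost without suspended replicate 1 or 3 or attached replicate 1, 3 or 4 (−0.34 to −0.21). IL2RA, the high-affinity chain for IL-2, had 5.71, 5.99, 5.89 and 5.93 in suspended and 6.19, 6.02, 6.17 and 6.03 in attached arrays (−0.22, SE 0.07, adjusted p = 0.0409). That call held only without suspended replicate 2 or attached replicate 2 among the 8 refits (−0.26 to −0.16), and went when replicate number was blocked (adjusted p = 0.102).

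TSLP, a cytokine of epithelial cells that acts on dendritic cells, was also at low signal. It had 4.05, 4.19, 4.39 and 4.25 in suspended and 3.96, 3.82, 4.08 and 3.87 in attached arrays. Suspended replicate 1 lay below attached replicate 3, the only overlap among the 16 called genes. TSLP rose by 0.29 (SE 0.08, adjusted p = 0.0213), a call lost without suspended replicate 3 or 4 or attached replicate 2 or 4 (0.23 to 0.34). The shared gamma chain IL2RG, at low signal, differed by 0.12, IL2RB by 0.17 and IL21R by 0.15, with none called. Among the other ligands of this group, IL2 (−0.01), IL7 (0.04), IL15 (−0.03) and IL21 (0.15) were not called either. Of the 7 measured ligands of the group, 6 lay at or below the low-signal mark, all but IL7.

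CSF1, the growth factor of macrophages, had the second largest rise. It had 8.08, 8.04, 8.05 and 8.005 in suspended and 7.47, 7.72, 7.53 and 7.58 in attached arrays. Suspended arrays agreed closely and lay above attached replicate 2, the highest of its group. CSF1 was 1.38-fold higher (log2 difference 0.47, SE 0.06, adjusted p = 0.000138). IL34, the other ligand of the CSF1 receptor, differed by 0.03 (95% interval −0.08 to 0.14), and the receptor gene CSF1R by 0.16 (adjusted p = 0.254). CSF3, which drives neutrophil production, differed by 0.06 (−0.06 to 0.19), and IL3 and IL5 were not called.

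**Figure D5:**
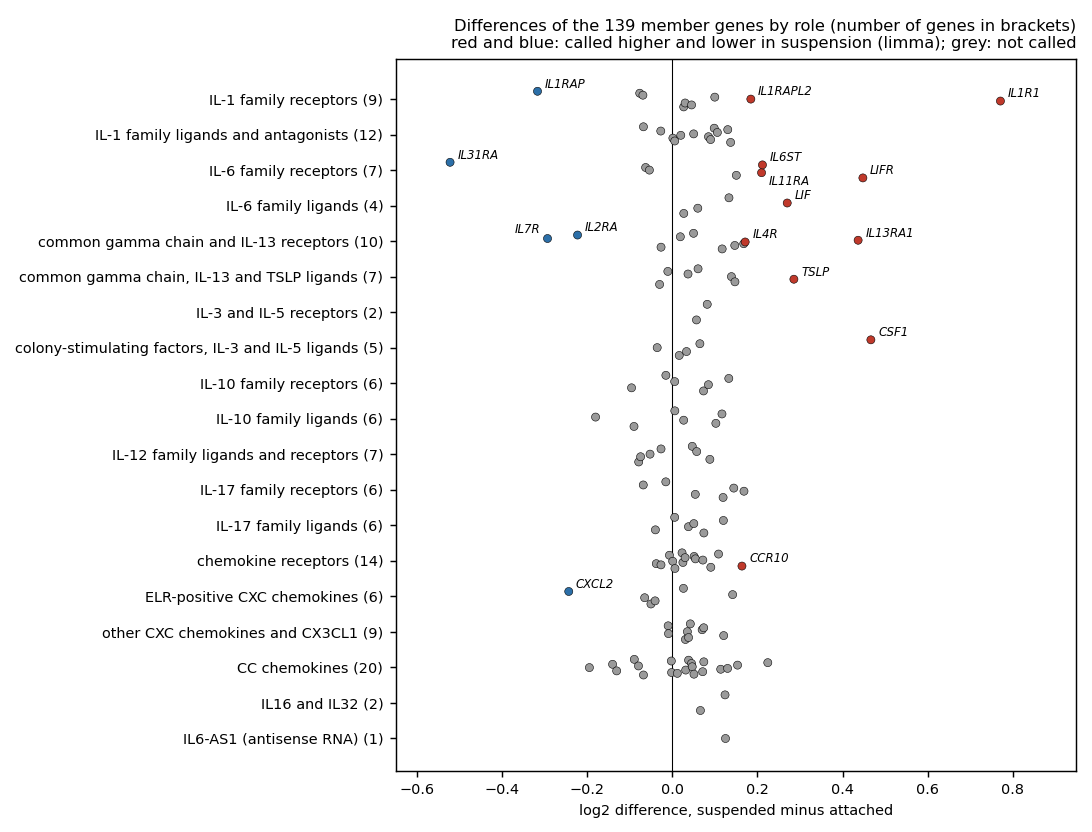
Log2 difference, suspended minus attached, of each of the 139 members (dots), grouped by role with the number of genes in brackets. Called genes are red (higher) or blue (lower) and named. They gather in the IL-1, IL-6 and gamma chain receptor rows, while the 35 chemokine ligands in the lower rows hold 1 call, CXCL2.

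Chemokine genes differed little. Of 35 chemokine ligand genes among the members 1 was called (2.86%, beside 20.6% of all genes tested). Of the 35, 16 lay at or below the low-signal mark, where 3.74% of all genes were called. Their differences ran from −0.24 to 0.22, with a median of 0.03. CXCL2, a ligand of the neutrophil receptor CXCR2, had 6.998, 7.07, 6.92 and 7.03 in suspended and 7.18, 7.19, 7.29 and 7.33 in attached arrays. The groups were apart, by less than the range within either one. CXCL2 was 1.18-fold lower in suspension (log2 difference −0.24, SE 0.05, adjusted p = 0.0076).

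The other chemokines with the ELR motif, which attract neutrophils, were not called. CXCL1 had means of 9.60 ± 0.05 suspended and 9.65 ± 0.14 attached (difference −0.05, 95% interval −0.20 to 0.10), and CXCL8, also known as interleukin-8, 6.09 ± 0.22 and 6.07 ± 0.08 (0.03, −0.18 to 0.23). CXCL3 (−0.04), CXCL5 (−0.07) and CXCL6 (0.14) lie in the same cluster on chromosome 4. CXCL1, CXCL2 and CXCL3 are close paralogs, so their probes may share part of their signal.

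The promoters of this cluster are shown because 5 of its 6 member genes hold the same NF-kB letters close to their start while differing in call. CXCL8 had no exact match to the letters searched (GGGRNWYYCC), and looser matches were not looked for. In the RefSeq promoter windows (GRCh38.p14, 250 bases before to 50 after the start of a gene), 80 bases centred on that match read as follows, on the strand of the gene, with the match in capitals.
CXCL2: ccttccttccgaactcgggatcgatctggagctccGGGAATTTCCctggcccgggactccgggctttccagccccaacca
CXCL1: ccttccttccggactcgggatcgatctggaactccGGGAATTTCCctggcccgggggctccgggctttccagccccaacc
CXCL3: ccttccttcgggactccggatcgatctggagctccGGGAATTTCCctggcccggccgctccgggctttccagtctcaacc
CXCL5: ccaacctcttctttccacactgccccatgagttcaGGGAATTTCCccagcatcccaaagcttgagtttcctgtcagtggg
CXCL6: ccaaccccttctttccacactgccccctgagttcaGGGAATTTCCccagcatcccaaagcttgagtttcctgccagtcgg
The CXCL2 stretch is chr4:74099229-74099308 on the minus strand, and its match covers positions −78 to −69 from the start. The match lies at −79 to −70 in CXCL1 (chr4:73869279-73869358, plus strand) and CXCL3 (chr4:74038724-74038803, minus strand). It lies at −91 to −82 in CXCL5 (chr4:73998724-73998803, minus strand) and at −90 to −81 in CXCL6 (chr4:73836553-73836632, plus strand). Set base by base against CXCL2 without gaps, 64 of 80 bases were the same in CXCL1, 60 in CXCL3, 33 in CXCL5 and 34 in CXCL6. So the called gene and 4 genes that were not called carry the same 10 letters.

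Over all windows, the NF-kB consensus was found on either strand in 5.72% of 27305 promoters and in 21 of the 108 member promoters in the table (19.4%). Of the 12 called members with a promoter there, CXCL2, IL2RA and IL4R held it, the first pair having fallen and the last having risen. The AP-1 motif TGANTCA was in 7.76% of all promoters, 17.6% of member promoters and 0 of the 12 called ones. The STAT motif TTCNNNGAA was in 7.88% of all, in 15.7% of member promoters and in those of LIFR and TSLP among the called. The TEAD motif GGAATG was in 14.05% of all, in 14.8% of member promoters and in that of LIFR among the called. A match is a run of letters and not a shown binding site, and windows without one say nothing of the factor.

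The LIFR and TSLP windows are printed because these are the 2 called members that hold the STAT letters, with matches in capitals.
LIFR: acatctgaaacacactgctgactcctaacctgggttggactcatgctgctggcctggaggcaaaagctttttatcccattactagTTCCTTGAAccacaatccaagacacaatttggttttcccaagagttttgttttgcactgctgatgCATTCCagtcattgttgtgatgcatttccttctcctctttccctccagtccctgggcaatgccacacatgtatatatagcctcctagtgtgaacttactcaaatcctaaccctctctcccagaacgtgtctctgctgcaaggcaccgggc
TSLP: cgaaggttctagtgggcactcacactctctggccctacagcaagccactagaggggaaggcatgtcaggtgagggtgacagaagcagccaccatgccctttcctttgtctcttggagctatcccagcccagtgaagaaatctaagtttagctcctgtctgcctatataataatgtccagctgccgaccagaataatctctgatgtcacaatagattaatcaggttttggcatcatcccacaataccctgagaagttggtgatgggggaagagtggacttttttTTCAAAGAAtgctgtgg
The LIFR window is chr5:38595356-38595655 on the minus strand, with the STAT letters at −165 to −157 and the TEAD letters, on the opposite strand, at −100 to −95. The TSLP window is chr5:111069812-111070111 on the plus strand, and its match lies downstream of the start, at 34 to 42.

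Of 20 CC chemokines, 9 of them at low signal, 0 were called by limma, beside 20.6% of all genes tested. An unadjusted limma p under 0.05 was found for 1 of them, CCL2, beside 32.5% of all genes tested. That share came from 544 of 4605 genes at or below the low-signal mark and 5436 of 13812 above it. CCL2, which attracts monocytes, had 7.005, 6.73, 7.09 and 7.08 in suspended and 7.25, 7.14, 7.22 and 7.09 in attached arrays. The groups met at the attached replicate 4 and suspended replicate 3 values (difference −0.20, 95% interval −0.37 to −0.02, adjusted p = 0.107). CCL5 (−0.14, adjusted p = 0.161), CCL4 (0.22, adjusted p = 0.244) and CCL11 (0.15, adjusted p = 0.361) were likewise not called. Of the 9 other CXC and CX3C ligands, 6 of them at low signal, 0 were called and 0 had an unadjusted p under 0.05. CXCL12 differed by −0.01 (−0.15 to 0.14) and its receptor CXCR4, a known marker of metastatic breast cancer cells, by 0.01 (−0.11 to 0.12), at a low signal of 4.96 in both groups.

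Among 14 chemokine receptors, CCR10, the receptor of CCL27 and CCL28, was the 1 called (7.14%, beside 20.6% of all genes tested). Of these 14, 9 lay at or below the low-signal mark, where 3.74% of all genes were called. CCR10 had 6.86, 6.85, 6.84 and 6.96 in suspended and 6.69, 6.69, 6.80 and 6.68 in attached arrays. Suspended replicate 4 and attached replicate 3 each lay above the rest of its group. The rise of 0.16 (SE 0.05, adjusted p = 0.0372) was the smallest among called members. The call held only without suspended replicate 3 or attached replicate 3 among the 8 refits (0.14 to 0.19), and was lost after quantile normalization (0.13), after median centring (0.12), with array weights (0.15, adjusted p = 0.0588) and when replicate number was blocked (adjusted p = 0.0936). CCL28 differed by 0.07 (−0.05 to 0.19). CXCR2, the receptor of CXCL2, differed by −0.04 and CXCR1 by 0.02, both at low signal.

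The chemokine receptors signal through inhibitory G proteins. A further list held atypical receptors, signal regulators, and chemokine genes outside the symbol rule (XCL1, XCL2, PF4, PPBP, XCR1 and CX3CR1). Of its 24 measured genes 2 were called (8.33%, beside 20.6% of all genes tested). Of the 24, 11 lay at or below the low-signal mark, where 3.74% of all genes were called. GNAI2, which encodes an inhibitory G protein subunit, rose by 0.59 (adjusted p = 7e-06) and RGS2, which limits G protein signalling, by 0.31 (adjusted p = 0.00367). The related subunit genes GNAI1 (0.11) and GNAI3 (−0.0003) were not called. The scavenger receptor ACKR3 differed by −0.15 (adjusted p = 0.11). The list's median difference was −0.01.

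The remaining families held 0 called genes, beside 20.6% of all genes tested. The 6 IL-10 family ligands differed by −0.18 (IL19, adjusted p = 0.0607) to 0.12 (IL24), all at low signal, and the 6 receptors by −0.10 to 0.13. The 7 IL-12 family ligands and receptors differed by −0.08 to 0.09. For the IL-17 family the 6 ligands ran from −0.04 to 0.12 and the 6 receptors from −0.07 to 0.17, the highest being IL17RC (adjusted p = 0.183). IL17REL differed by 0.14 (adjusted p = 0.342). At an unadjusted limma p under 0.05 these 5 groups held 1 gene, IL19, beside 32.5% of all genes tested. Such a p was found for 544 of 4605 genes at or below the low-signal mark and 5436 of 13812 above it. At or below the mark lay 3 of the 6 IL-10 family receptors and 5 of the 7 IL-12 family genes. So did 1 of the 6 IL-17 family ligands and 1 of the 6 receptors. IL32 (0.12), IL16 (0.07), IL3RA (0.08), IL5RA (0.06) and IL6-AS1 (0.12) were not called.

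Beyond STAT3 and STAT6, 3 more of 23 measured genes of the JAK, STAT and SOCS list rose and 0 fell. The 5 called genes were 21.7% of the list, near the 20.6% of all genes tested. Of the 23, 3 lay at or below the low-signal mark, and above it 26.2% of all genes were called. They were SOCS6 (0.72, adjusted p = 2e-06), a member of the suppressor of cytokine signalling family, and PIAS3 (0.64, adjusted p = 8e-06) and PIAS1 (0.19, adjusted p = 0.0109), inhibitors of activated STAT proteins. PIAS1 was not called after median centring (0.14, adjusted p = 0.0657). The feedback inhibitors SOCS1 (0.23, adjusted p = 0.157), SOCS3 (0.08, adjusted p = 0.512) and CISH (0.12, adjusted p = 0.177), which STAT signalling is known to induce, were not called, nor were the kinases JAK1 (0.02) and JAK2 (0.07). The median of the 23 genes was 0.08, beside 0.02 for all genes tested. Of their differences 18 were above 0 and 5 below, beside 10582 above and 7835 below among all genes tested. The lowest was that of PTPN11 (−0.24, limma adjusted p = 0.0508), followed by SOCS4 (−0.15, adjusted p = 0.0657), and neither was called. Of 13 measured further cytokines and receptors of the same families 1 was called, OSM (7.69%, beside 20.6% of all genes tested).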

How the data were processed

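The authors deposited a table of 33297 probe sets by 8 arrays whose values are log2 signals, a scale inferred from array maxima of 13.69 to 13.73. Partek is the tool named in the submitters' processing notes. How background and array differences were handled was not given in the sources used here. Gene names came from the annotation of the array platform, and probe sets with several symbols, 9 of which name a member symbol, were left out. Of the 139 members 3 had 2 probe sets, and the one with the highest mean stood for the gene. All 139 matched RefSeq (GRCh38.p14) by gene ID.

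The test was two-sided, by limma 3.58.1 (R 4.3.3; lmFit, then eBayes) without covariates, over 18417 genes, with Benjamini-Hochberg adjustment over all of them and a threshold of 0.05. Differences are suspended minus attached, SE is limma's moderated standard error, and intervals are 95% and unadjusted. The method was tested on simulated data. Arrays have no read depth, and 4 per group limit the precision.

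The members, their roles and the pathway lists were chosen with earlier results of these data known. Named are all called members, the 10 uncalled members with the largest differences, and partners of called members. Also named are all called genes of each pathway list, and members of any count of 5 or fewer. Further genes given beside a count or a family were named after their values were seen. Alternatives were a replicate block, quantile normalization, median centring, a low-signal filter, array weights, a trended robust prior, averaged or all probe sets, and leaving out each array. Python 3.11.15 with pandas 2.3.3 made the tables, and matplotlib 3.10.9 the plots.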

Additional observations from a re-analysis of the deposited data

Results flagged for a closer look

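Among the 128 sets of 4 arrays formed by the named genes and the 2 conditions, 6 had an array far from the other 3 by Dixon's criterion, where chance gives about 1 in 20. CCR10 was set apart in suspended replicate 4 (6.96, the others 6.84 to 6.86) and in attached replicate 3 (6.80, the others 6.68 to 6.69). CCL11 in attached replicate 3 was at 5.58 (others 5.88 to 5.94). Attached replicate 2 was high for CXCR2 (3.69, others 3.61 to 3.62), IL1RL1 (4.09, others 4.00 to 4.02) and SOCS6 (7.47, others 7.37 to 7.39).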

How the results depend on the processing

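Over the 16 alternative settings, 8 of the 16 called members were called in each (IL1R1, CSF1, IL31RA, IL13RA1, LIFR, IL1RAP, CXCL2 and IL11RA), and no called gene changed direction. With 1 array left out, 11 to 16 members were called (8 to 13 higher, 3 to 6 lower), 5 to 6 JAK, STAT and SOCS genes, 3 to 6 adaptor genes, 2 to 3 chemokine regulators and 0 to 1 further cytokine genes. Median centring gave 7 members higher, 0 further cytokine genes, and a median log2 difference of member genes of −0.00518. The low-signal filter and array weights each gave 2 further cytokine genes. The replicate numbers did not pair the arrays (same-numbered deviations correlated at −0.20 to 0.04, and 0 of 8 arrays correlated best with its own number); with the replicate number as a block 13 members were called. Signals near background limit the 72 low members.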
